A study of Xenopus laevis with 4 samples.

Results

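Genes of vesicle and endoplasmic reticulum (ER) traffic were followed in RNA from the vegetal cortex of Xenopus laevis oocytes. Probe sets were taken where the single platform symbol, without its final .L or .S, began with rab, arf, sec, vps, snx, stx, vamp, tmed or cop; rabl, arfip, secis, cops and copr symbols were left out. This gave 185 of 15491 probe sets other than controls, which stood for 143 symbols, or 119 genes when copies are joined. The frog is allotetraploid, and .L and .S name the copy of a gene on the long or the short chromosome of each homeologous pair. The rule used symbols and no measured value, and it also took in vps72, which is known as a chromatin gene.

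Membrane proteins and secreted proteins enter the ER through the Sec61 channel and leave it in vesicles coated by COPII. Vesicles coated by COPI carry material back from the Golgi, Rab and Arf GTPases mark the membranes and recruit coats and tethers, and SNAREs drive fusion. Sorting nexins, retromer and the ESCRT complexes sort cargo on endosomes. In the frog oocyte the ER reaches into the cortex, and cortical granules lie there that fuse with the plasma membrane at fertilization. The roles given below are known mainly from mammals and yeast.

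Vegetal cortex and whole oocyte RNA was compared on 2 Affymetrix arrays each. The vegetal cortex samples came from full-grown stage VI oocytes that had been treated with collagenase, bisected and pressed free of yolky cytoplasm, with the cortices frozen in pools of 10. The whole oocyte samples were intact stage VI oocytes, also treated with collagenase, from the same female as the cortices; each replicate number stands for a different female. Collagenase loosens the follicle layer, and the labels name no check for follicle cells that stayed attached.

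The 4 arrays had median signals between 513.5 and 593.9 and were scaled to the same trimmed mean, so a change is relative to the rest of the RNA in a sample. Of 9 tested probe sets for known vegetal cortex RNAs, 8 rose in the cortex by limma, and the exception was vegt.S; the 9 log2 changes lay between 1.92 and 4.65. The 4 zona pellucida probe sets that mark the oocyte were bright in both groups, at 0.21 to 1.48, and none passed. Of 17 probe sets on a list of follicle and stromal markers 7 were bright enough to test and 1 rose, cyp17a1.L. The log2 changes of these 7 had a median of 0.15 and lay between -0.0051 and 2.13. Whether RNA of cyp17a1.L and the other listed genes came from follicle cells or from the oocyte itself was not tested. The summed signal of these 17 was 55382 and 51909 in the cortex samples, against 32529 and 32343 in whole oocytes, none was listed at 0, and their part in the results was not tested. The 5 blood marker probe sets summed to 336.0 and 285.7 in the cortex, against 249.1 and 182.7 in whole oocytes, and none was tested. In bulk RNA, transcripts of the oocyte and of attached cells cannot be told apart. The bacterial poly-A controls had medians of 415.2 and 109.7 in cortex replicates 1 and 2. They were 436.8 and 49.0 in whole oocyte replicates 1 and 2, so replicate 1 was higher in both groups. Differences between the females can therefore not be told apart from differences between the replicates in how the RNA was processed.

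Among the traffic genes 2 rose in the vegetal cortex, the Rab11 effector gene rab11fip4l.L and the Rab GTPase gene rab8a.S, and none was called lower. Most of the others lay close to the bulk of the array. The median log2 change of the 163 tested probe sets was -0.26, with -0.23 in the first female and -0.21 in the second. For all 9295 tested probe sets it was -0.20, with -0.27 in the first female and -0.12 in the second. On the deposited scaling, 10 of 12 probe sets for the p24 cargo receptors lay above 0, beside 34.3% of all tested probe sets. All 10 for the COPI coat lay below 0, beside 65.7% of all. Sorting nexins (20 of 22 probe sets) and SNAREs (15 of 17) also lay mostly below 0, and 5 of 8 in the translocon group lay above it. No member of these groups passed the test. A log2 change is cortex minus whole oocyte on log2(signal + 19.11). The offset, the 10th percentile of all signals, understates the change of dim probe sets. The error given with a log2 change is the SE from limma, and adjusted p-values are limma's with Benjamini-Hochberg adjustment over all 9295 tested probe sets, called under 0.05.

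The 2 calls were 1.23% of the tested traffic probe sets, beside 3.31% (308 probe sets) of all tested called higher. No traffic probe set and 0% of all tested were called lower by limma. At an unadjusted p under 0.05, 10 traffic probe sets were higher (6.13%, against 8.02% of all) and 8 were lower (4.91%, against 4.62% of all). In both females 5 were at least 2-fold higher (3.07%, against 5.61% of all) and 1 at least 2-fold lower (0.613%, against 0.549% of all). Both cortex arrays lay above both whole oocyte arrays for 29 probe sets (17.8%, against 14.7% of all) and below them for 57 (35%, against 31.8% of all). The shares of called and of 2-fold increased traffic probe sets were thus below those of the array, and whether they differ from it was not tested. The number of calls changed when 1 array was left out, while rab11fip4l.L kept its call each time. Without vegetal cortex replicate 1 there were 7 higher (7.5% of all probe sets were called higher there) and 6 lower (7.24% of all), and without vegetal cortex replicate 2 there were 5 higher (7.17% of all) and 1 lower (0.409% of all). In those fits the error comes from the whole oocyte arrays alone, so a pass in them has no cortex replication behind it. Without whole oocyte replicate 1 or whole oocyte replicate 2 there was 1 call, rab11fip4l.L (1.34% and 1.51% of all). It was also the 1 call with no filter on dim probe sets (1.43% of all) and without the intensity trend (2.69% of all). With the replicate number as a block (3.82% of all), with median centring (3.57% of all) or with a higher signal limit at the 60th percentile (5.21% of all) there were 3, and none was lower.

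**Figure D1:**
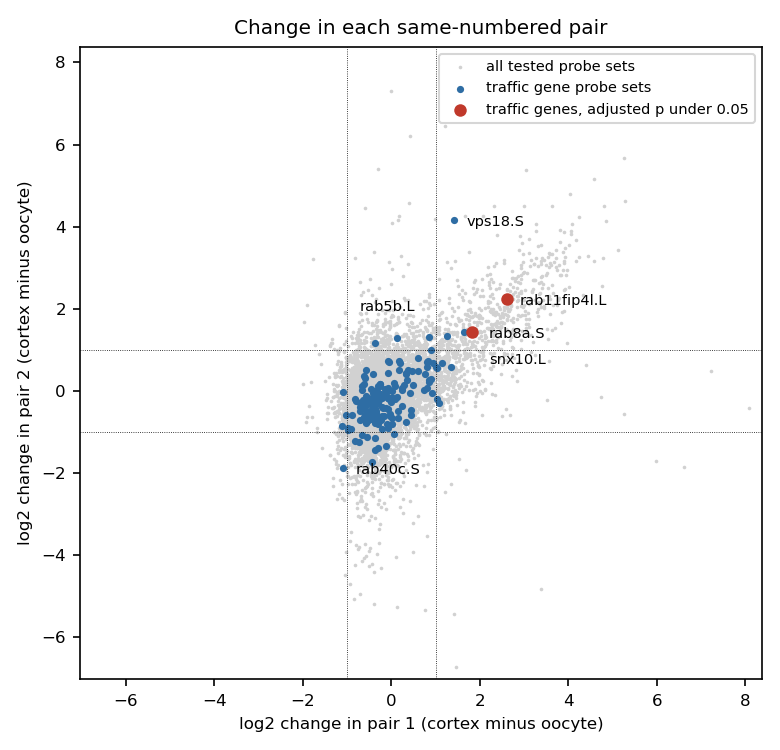
Log2 change (vegetal cortex minus whole oocyte) in the first same-numbered pair on the x axis and in the second on the y axis, for all 9295 tested probe sets (grey), the 163 traffic gene probe sets (blue) and the 2 called ones (red); dotted lines mark 2-fold. rab11fip4l.L, rab8a.S, snx10.L, rab5b.L and 1 vps18.S probe set lie beyond 2-fold above in both pairs, and 1 rab40c.S probe set lies beyond 2-fold below.

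rab11fip4l.L carries the name of a gene like rab11fip4, which encodes a partner protein of the recycling endosome GTPase Rab11. Its signal was 38745 and 39240 in the cortex samples, against 6306 and 8242 in whole oocytes. Both cortex arrays were nearly equal and far above both whole oocyte arrays. The cortex value was 5.4 times the whole oocyte value (log2 change 2.43 ± 0.28, adjusted p = 0.00344), with 2.62 in the first female and 2.25 in the second. It passed in every alternative fit run here, with log2 changes between 2.03 with quantile normalization and 2.62 without whole oocyte replicate 2.

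The genes of the Rab11 GTPases stayed close to 0. rab11a.S had signals of 938.4 and 587.4 in the cortex, against 786.8 and 558.1 in whole oocytes, a log2 change of 0.16 ± 0.44 (adjusted p = 0.898). For rab11b.1.S the signals were 4522 and 5181 in the cortex, against 4760 and 4907 in whole oocytes (0.00 ± 0.32, adjusted p = 0.999). Both groups overlapped for both genes, which were singled out after their values were seen. Another gene of the same effector family, rab11fip5.L, was too dim to test, at 137.5 and 87.7 in the cortex, against 116.2 and 106.1 in whole oocytes.

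rab8a.S encodes a GTPase of transport from the Golgi and recycling endosomes to the plasma membrane. Its brighter probe set had signals of 8243 and 8384 in the cortex, against 2333 and 3075 in whole oocytes, and the groups did not overlap. The gene was 3.09-fold higher (log2 change 1.63 ± 0.33, adjusted p = 0.0357), at 1.81 in the first female and 1.44 in the second. The second probe set of rab8a.S was dimmer, at 684.7 and 636.5 in the cortex, against 440.9 and 356.3 in whole oocytes; its log2 change of 0.71 ± 0.42 missed the threshold (adjusted p = 0.509). The call on the brighter probe set was lost without whole oocyte replicate 1 (1.43, adjusted p = 0.45), without whole oocyte replicate 2 (1.82, adjusted p = 0.178), with no filter on dim probe sets (adjusted p = 0.0662) and without the intensity trend (adjusted p = 0.0678). rab3ip, which encodes an exchange factor that activates Rab8, was measured in both copies. rab3ip.S had 5464 and 5337 in the cortex, against 7656 and 8547 in whole oocytes (-0.58 ± 0.30, adjusted p = 0.471), and rab3ip.L was at -0.59 ± 0.37 (adjusted p = 0.53). Both copies were lower on both cortex arrays without passing the test.

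snx10.L, a sorting nexin of endosomes, lay just outside the calls. Its signals were 16469 and 10162 in the cortex, against 5228 and 3780 in whole oocytes. Each cortex array was above both whole oocyte arrays, and the log2 change was 1.54 ± 0.36 (adjusted p = 0.0681), 1.65 in the first female and 1.42 in the second. It passed when replicate number was a block (adjusted p = 0.0321), with arrays centred on their medians (0.0473) and with the higher signal limit (0.0385). The log2 change was 1.19 without vegetal cortex replicate 1 and 1.88 without vegetal cortex replicate 2.

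**Figure D2:**
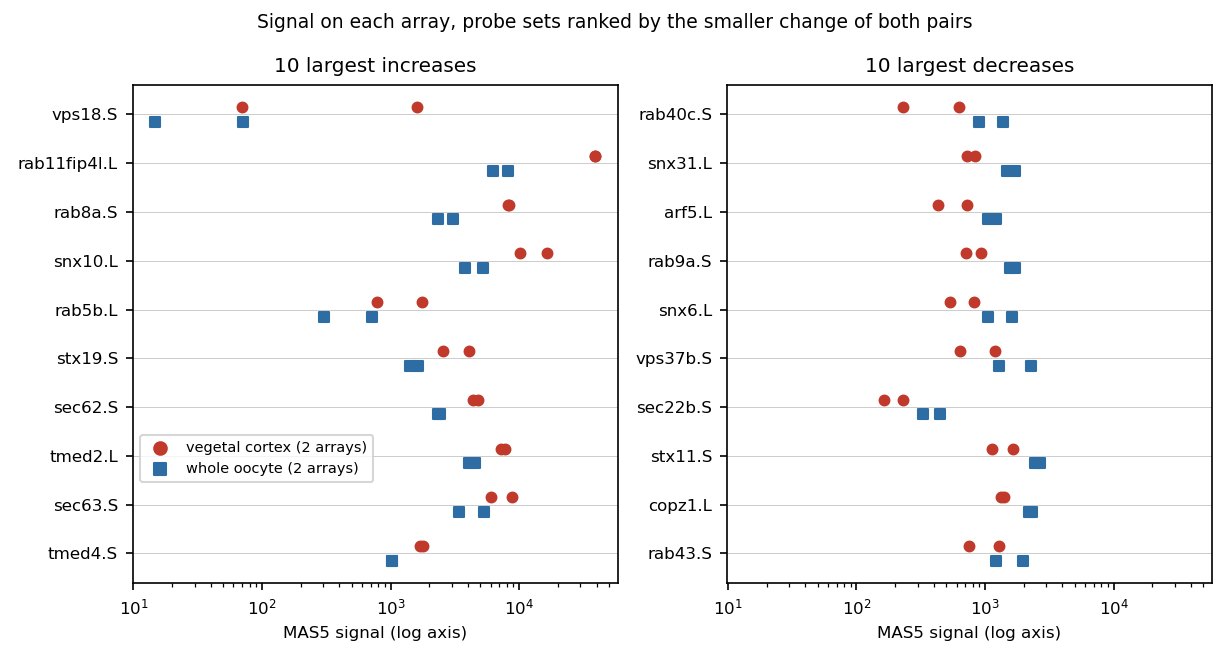
MAS5 signal on each of the 4 arrays (log axis) for the 10 traffic probe sets with the largest increase and the 10 with the largest decrease, ranked by the pair in which the change was smaller; circles are vegetal cortex arrays and squares whole oocyte arrays. The arrays of rab11fip4l.L, rab8a.S and snx10.L are well separated, those of rab5b.L less so, and vps18.S is carried by 1 cortex array; only rab11fip4l.L and rab8a.S passed the test.

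The Rab GTPases were the largest role group, with 36 tested probe sets for 27 symbols. Of these 13 had a log2 change above 0 and 23 below 0, with a median of -0.18 and rab8a.S as the 1 call. rab5b.L, a GTPase of early endosomes, came next. Its signals were 1740 and 789.9 in the cortex, against 719.7 and 301.3 in whole oocytes, and the lower cortex value was just above the higher whole oocyte value. Its log2 change of 1.29 ± 0.56 missed the threshold (adjusted p = 0.392) and was near the same in both females (1.25 and 1.34). Without vegetal cortex replicate 2 the log2 change was 1.85, on a single cortex array.

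No gene of the Rab5 family passed. rab5c.L, the brightest Rab GTPase probe set, had 5338 and 4932 in the cortex, against 6187 and 7545 in whole oocytes (-0.41 ± 0.31, adjusted p = 0.6). The probe sets of rab5d.L were at -0.81 and -0.24, and those of rab5a.L at -0.38 and 0.56, so the family had values on both sides of 0.

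At the low end of the Rab group stood rab40c.S, of a Rab family known to recruit ubiquitin ligases. One probe set had 629.1 and 228.6 in the cortex, against 1368 and 897.4 in whole oocytes, without overlap. Its log2 change was -1.49 ± 0.54 (adjusted p = 0.308) and -2.19 without vegetal cortex replicate 1, on a single cortex array. The other probe sets of rab40c.S were at -0.40 and -0.14. rab9a.S, known for transport from late endosomes to the Golgi, had 708.5 and 933.1 in the cortex, against 1561 and 1696 in whole oocytes (-0.98 ± 0.37, adjusted p = 0.337), again without overlap.

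rab43.S, which acts between the ER and the Golgi, had 1281 and 754.2 in the cortex, against 1973 and 1227 in whole oocytes (-0.65 ± 0.44, adjusted p = 0.553). The 4 probe sets of rab1a.L, which acts in ER to Golgi transport, ranged from -0.32 to 0.43, and none passed. rab6a.S of the Golgi was at 0.10, rab2b.S at -0.13 and rab10.L, known from the ER and exocytosis, at 0.37. The secretory Rab genes rab3a.L, rab27a.L and rab27a.S, of regulated exocytosis, had changes of -0.30, -0.43 and -0.19. None of these genes passed.

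The remaining Rab partners gave no further call. Of 9 tested probe sets 3 lay above 0, and apart from rab11fip4l.L the highest were rabac1.S (0.45) and rabac1.L (0.19), which encode a prenylated Rab acceptor. rabif.S, rabgap1l.L and rabgap1l.S lay at -0.44, -0.48 and -0.14, and rab5if.L at -0.17.

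**Figure D3:**
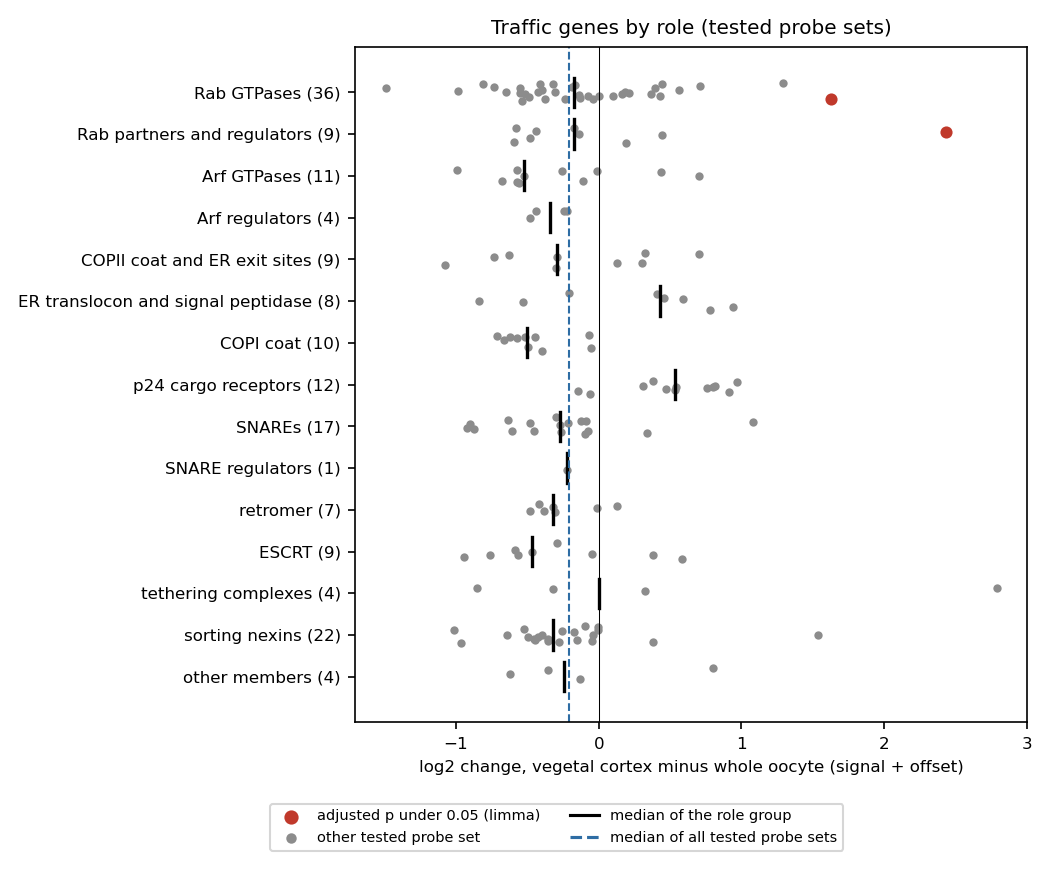
Log2 change (vegetal cortex minus whole oocyte) of each tested traffic probe set on the x axis by role group, with the number tested in brackets; red points passed the test, black bars are the medians of the groups and the dashed line is the median of all 9295 tested probe sets (-0.20). The p24 cargo receptors (median 0.54) and the translocon group (0.43) lie to the right, and the COPI coat (-0.50) and Arf GTPases (-0.52) to the left.

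The translocon and signal peptidase members had a median above 0, while genes of ER entry outside the symbol rule had values on both sides. The translocon and signal peptidase group had 8 tested probe sets for 7 symbols, a median log2 change of 0.43 (0.47 and 0.20 in the females), and 5 of 8 above 0, beside 34.3% of all tested probe sets. sec62.S and sec63.S encode partners of the channel in post-translational translocation. sec62.S had 4378 and 4815 in the cortex, against 2335 and 2419 in whole oocytes (0.94 ± 0.33, adjusted p = 0.282). sec63.S had 6015 and 8843 in the cortex, against 3377 and 5322 in whole oocytes (0.78 ± 0.37, adjusted p = 0.437). The arrays of the groups did not overlap for either gene, and sec63.S was at 1.06 without vegetal cortex replicate 1.

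sec11a.L, the catalytic subunit of signal peptidase, had 8328 and 6956 in the cortex, against 4893 and 5209 in whole oocytes (0.59 ± 0.31, adjusted p = 0.474). The subunits of the channel itself were mixed. sec61b.L had 3812 and 2391 in the cortex, against 5571 and 5247 in whole oocytes (-0.84 ± 0.36, adjusted p = 0.392). sec61g.L was at -0.53 and -0.21 on its probe sets. sec61a1.S was at 0.41, with 1.02 in the first female and -0.21 in the second. In fits on a single cortex array, whose spread cannot be measured, 2 of these genes were called. They were sec61b.L, lower without vegetal cortex replicate 1, and sec61a1.S, higher without vegetal cortex replicate 2.

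The COPII coat and its ER exit sites showed no common direction. Of 9 tested probe sets 4 lay above 0 and 5 below, with a median of -0.30. sec24a.S and sec24c.S, which encode cargo-binding subunits of the coat, stood at opposite ends. sec24a.S had 800.5 and 2683 in the cortex, against 736.2 and 1085 in whole oocytes (0.70 ± 0.57, adjusted p = 0.621), with 0.12 in the first female and 1.29 in the second. sec24c.S had 533.7 and 295.7 in the cortex, against 728.0 and 1022 in whole oocytes (-1.08 ± 0.46, adjusted p = 0.389). With vegetal cortex replicate 1 left out both passed in opposite directions, on a single cortex array whose spread cannot be measured. sec23b.L, of the inner coat, was at -0.63 ± 0.38, sec13.S, of the outer coat, at -0.30, and the exit site scaffold genes sec16a.L and sec16a.S were at 0.13 and 0.31.

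The p24 proteins are transmembrane cargo receptors that cycle between the ER and the Golgi. All 12 of their probe sets were tested, with a median of 0.54 (0.71 in the first female and 0.48 in the second). In both females 10 of the 12 lay above 0, and in 9 both cortex arrays exceeded both whole oocyte arrays (14.7% of all tested probe sets). With 1 probe set per symbol, 6 of 7 symbols lay above 0, beside 31.6% of all symbols. No probe set passed, and 4 were higher at an unadjusted limma p under 0.05 (33.3%, against 8.02% of all). With 1 probe set per symbol it was 3 of 7 symbols (42.9%, against 7.13% of all symbols). The 12 probe sets share few genes, since 5 of them are for tmed2.L.

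tmed7.L, the brightest of the group, had 10844 and 10907 in the cortex, against 5348 and 7283 in whole oocytes (0.80 ± 0.31, adjusted p = 0.348). tmed5.L had 3028 and 2346 in the cortex, against 1174 and 1562 in whole oocytes (0.97 ± 0.37, adjusted p = 0.339). tmed2.L had 7824 and 7274 in the cortex, against 4063 and 4529 in whole oocytes, on 1 of its 5 probe sets (0.81 ± 0.31, adjusted p = 0.339). The cortex arrays lay above the whole oocyte arrays on these probe sets. The 5 probe sets of tmed2.L ranged from -0.06 to 0.91, and on the lowest the groups overlapped.

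The remaining p24 genes included the group's exception. tmed4.S had 1801 and 1694 in the cortex, against 1020 and 1030 in whole oocytes (0.76 ± 0.36, adjusted p = 0.431). tmed9.S was at 0.53 and tmed10l.L at 0.54. tmed4.L, the other copy of tmed4, was at -0.14, with signals of 593.5 and 264.9 in the cortex, against 593.9 and 326.9 in whole oocytes.

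COPI, the coat of the return route, lay on the other side of 0. All 10 probe sets for 8 symbols were tested, and the median was -0.50 (-0.30 and -0.69 in the females). The medians of all tested probe sets were -0.27 and -0.12 in the females, so COPI lay apart from the array mainly in the second. None had a fitted change above 0, where 65.7% of all tested probe sets lay below 0. In both females 8 of the 10 lay below 0 (4366 of all 9295). In 7 both cortex arrays were below both whole oocyte arrays (31.8% of all), and none passed the test, nor had an unadjusted p under 0.05. copz1.L, the zeta subunit, had 1411 and 1320 in the cortex, against 2318 and 2188 in whole oocytes (-0.71 ± 0.35, adjusted p = 0.449), and its other copy copz1.S was at -0.62. copb2.S, the brightest, had 10785 and 6112 in the cortex, against 11523 and 10685 in whole oocytes (-0.45 ± 0.35, adjusted p = 0.605). In that gene the value came mainly from the second female (-0.80, beside -0.10 in the first). copa.L was at -0.67, cope.S at -0.52, copb1.L at -0.39, copg2.S at -0.07, and the probe sets of copg1.L ranged from -0.57 to -0.06.

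Arf GTPases recruit COPI and other coats, and none of their 11 tested probe sets for 8 symbols passed. Of these 9 lay below 0 (81.8%, beside 65.7% of all), with a median of -0.52. With 1 probe set per symbol it was 6 of 8 symbols (75%, beside 68.4% of all symbols), with a median of -0.39. arf6.S, which acts at the plasma membrane, had 7883 and 8776 in the cortex, against 11477 and 12439 in whole oocytes (-0.52 ± 0.29, adjusted p = 0.492), alike in both females (-0.54 and -0.50). arf5.L had 724.9 and 434.2 in the cortex, against 1222 and 1063 in whole oocytes, on its lower probe set (-0.996 ± 0.42, adjusted p = 0.384). It was at -1.35 when vegetal cortex replicate 1 was left out. The brighter arf6.2.L probe set was the highest, with 5191 and 3665 in the cortex, against 2938 and 2426 in whole oocytes (0.70 ± 0.35, adjusted p = 0.464), and its other probe set was at -0.01. All 4 tested probe sets of the Arf regulators, for 3 symbols, were below 0 (65.7% of all). Among them was arfgap2.S, for an enzyme that ends Arf signalling on COPI vesicles (-0.48 ± 0.33). The group was formed by symbol and also held arfrp1.S (-0.24), which encodes an Arf-related GTPase.

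The SNAREs, which fuse vesicles with their target membrane, gave 17 tested probe sets, of which 15 lay below 0 (88.2%, beside 65.7% of all; median -0.27, beside -0.20). stx11.S had 1663 and 1143 in the cortex, against 2664 and 2439 in whole oocytes (-0.88 ± 0.37, adjusted p = 0.384). sec22b.S, an ER to Golgi SNARE, had 232.0 and 162.3 in the cortex, against 449.9 and 329.6 in whole oocytes (-0.92 ± 0.49, adjusted p = 0.478). Neither pair of groups overlapped. One probe set of stx19.S had 2575 and 4061 in the cortex, against 1420 and 1623 in whole oocytes (1.08 ± 0.38, adjusted p = 0.284), and was at 1.41 without vegetal cortex replicate 1. Its name ends in _x_at, which marks probes that may hybridize to several transcripts, and the other probe sets of stx19.S lay between -0.30 and -0.08. The 1 tested SNARE regulator, stxbp3.L, was at -0.22, with 0.32 in the first female and -0.77 in the second.

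Of the sorting nexins, which act on endosomes, 20 of 22 tested probe sets lay below 0 (90.9%, beside 65.7% of all), with a median of -0.32. Besides snx10.L, the 1 probe set above 0 was that of snx1.L, with 4226 and 3296 in the cortex, against 2511 and 3277 in whole oocytes (0.38 ± 0.35). It encodes a nexin that works with retromer, together with snx2.S (-0.43), snx5.L (-0.64) and snx6.L. The lowest snx6.L probe set had 821.6 and 531.3 in the cortex, against 1628 and 1054 in whole oocytes (-0.97 ± 0.43, adjusted p = 0.402), and its other probe sets lay between -0.40 and -0.04. snx31.L had 840.8 and 722.1 in the cortex, against 1494 and 1707 in whole oocytes (-1.02 ± 0.37, adjusted p = 0.308).

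Retromer, the ESCRT complexes and the tethers gave no call. The 7 tested retromer probe sets had a median of -0.32, and vps35.S, of the core, was at -0.30 ± 0.39. ESCRT genes had a median of -0.47 over 9 probe sets. vps37b.S of ESCRT-I had 641.5 and 1203 in the cortex, against 1287 and 2261 in whole oocytes (-0.94 ± 0.46, adjusted p = 0.456), and was at -1.39 when vegetal cortex replicate 2 was left out. Its other copy vps37b.L had 7604 and 7502 in the cortex, against 4103 and 6161 in whole oocytes (0.59 ± 0.34, adjusted p = 0.501). vps28.S of the same complex was at -0.56 and -0.76, vps25.L of ESCRT-II at -0.59, and vps4a.L, the ATPase that takes ESCRT apart, at -0.47.

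vps18.S is a core gene of the endosomal tethers HOPS and CORVET, and 1 of its probe sets passed the signal limit through 1 array alone. That probe set had 70.4 and 1608 in the cortex, against 14.6 and 71.3 in whole oocytes. Cortex replicate 1 and whole oocyte replicate 2 were alike. Its log2 change depended on the offset, since 1 whole oocyte value lay below 19.11. It was 2.79 ± 1.23 (adjusted p = 0.401), and 2.08 with the offset at the 25th percentile. On a single cortex array it was 0.70 without vegetal cortex replicate 2 and 4.88 without vegetal cortex replicate 1. The other probe sets of vps18.S were at -0.85 and -0.32, and vps11.S, the other tested tether, was at 0.32 ± 0.36.

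Members of other roles did not pass. sec14l1.L, named for its likeness to a lipid transfer protein, had 4452 and 2424 in the cortex, against 2152 and 1645 in whole oocytes (0.80 ± 0.41, adjusted p = 0.468). vps45.S, which encodes a partner of endosomal SNAREs, was at -0.62. The chromatin gene vps72 was at -0.13 for vps72.L and -0.35 for vps72.S.

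Several probe sets for 1 symbol show how far values of the same gene lay apart. Among 23 symbols with more than 1 tested probe set, the range of log2 changes had a median of 0.58, and 8 symbols had values on both sides of 0. The range exceeded 1 for vps18.S, stx19.S and rab40c.S, whose lowest and highest values are given above. It was narrow for rab18.S (-0.55 to -0.49), arf4.S (-0.68 to -0.57) and vps29.S (-0.48 to -0.32). For rab8a.S both probe sets were above 0, 0.92 apart on the log2 scale, and rab11fip4l.L had a single probe set.

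**Figure D4:**
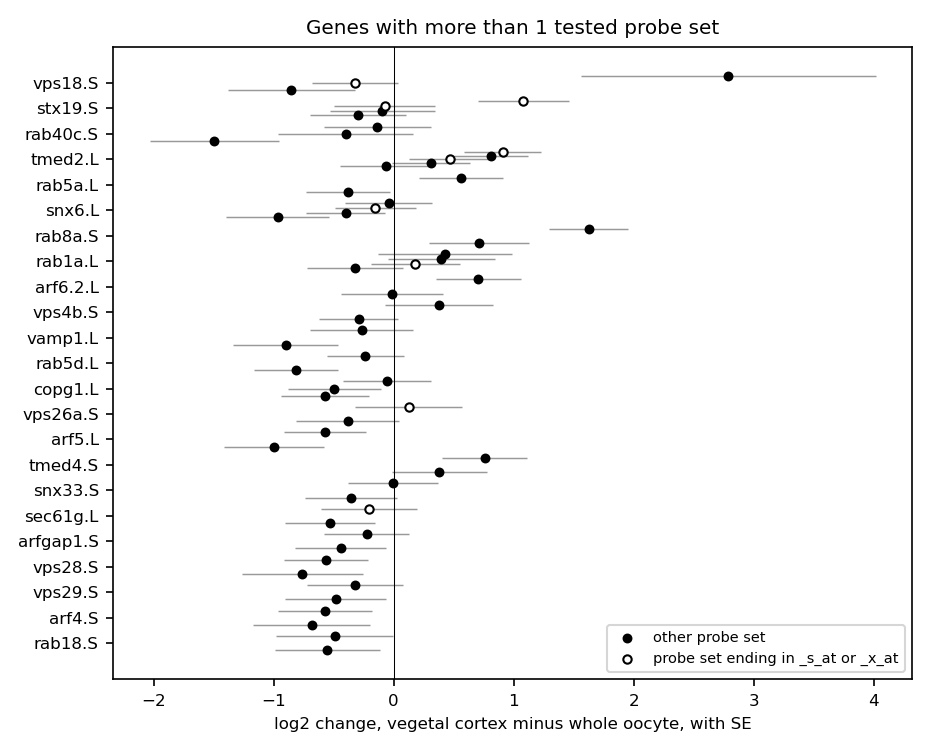
Log2 change (vegetal cortex minus whole oocyte, x axis) with limma's SE for each probe set of the 23 traffic symbols with more than 1 tested probe set, ordered by the range within the symbol; open circles are probe sets that may hybridize to several transcripts. vps18.S, stx19.S and rab40c.S have ranges above 1, while both values of rab8a.S lie above 0.

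Both homeologous copies were tested for 19 traffic genes, with the brightest probe set of each copy. The .L minus .S difference of the change passed limma's test for none of them (0 of 19, beside 1.26% of all 636 pairs). An unadjusted p under 0.05 was seen for 4 of 19, a larger share than in all pairs (58 of 636, 9.12%). That difference in shares was not tested. Both copies lay below 0 in 12 genes and above 0 in 3, and in 4 they had opposite signs. The largest difference was that of vps37b, 1.53 ± 0.44 (adjusted p = 0.297), which was 1.87 in the first female and 1.18 in the second. Next came arf6.2 (1.26 ± 0.46, adjusted p = 0.473), whose dimmer .L probe set lay below 0 like its .S copy, sec31b, of the outer COPII coat (1.06 ± 0.38, adjusted p = 0.473) and snx31 (-1.02 ± 0.40, adjusted p = 0.495). By contrast rab3ip copies differed by -0.01 ± 0.38, vps26a copies by -0.04 ± 0.38 and copz1 copies by -0.09 ± 0.37. In fits on a single cortex array, whose spread cannot be measured, vps37b passed without vegetal cortex replicate 2, and tmed4 without vegetal cortex replicate 1. The other copies of rab8a, snx10 and rab11fip4l had no probe set among those that the symbol rule took in, so they have no value here.

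**Figure D5:**
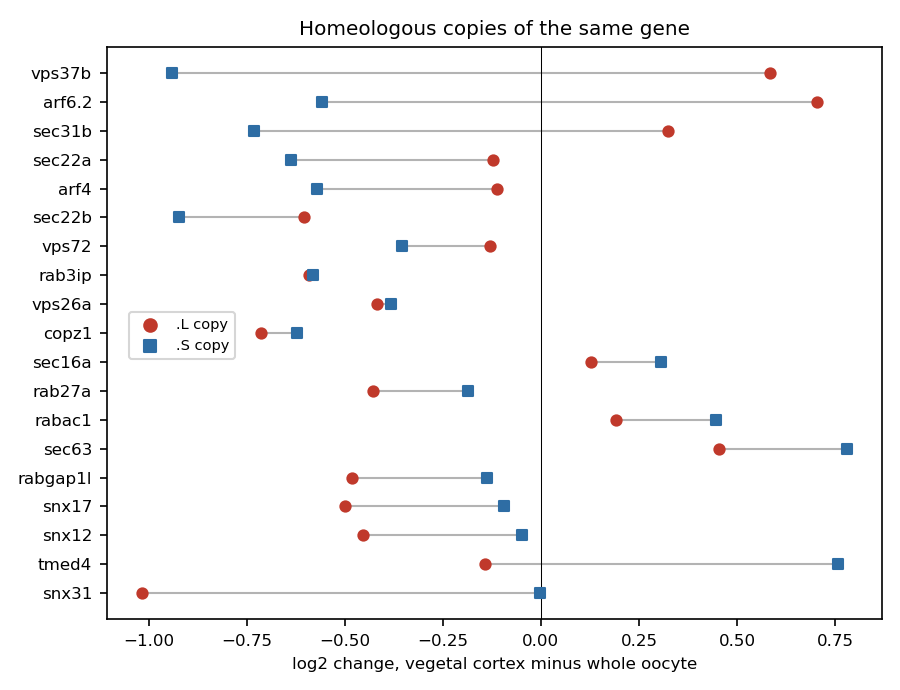
Log2 change (vegetal cortex minus whole oocyte, x axis) of the .L copy (circles) and the .S copy (squares) of the 19 traffic genes with both copies tested, ordered by the difference. vps37b, arf6.2 and sec31b have copies on opposite sides of 0 on their brightest probe sets (the dimmer arf6.2.L probe set, at -0.01, is not drawn), and the copies of rab3ip, vps26a and copz1 nearly coincide; no difference passed the test.

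The 22 traffic probe sets below the signal limit of 271.5 were not tested. Their signals lay between 8.0 and 304.7 in the cortex and between 14.3 and 382.8 in whole oocytes. The groups overlapped in 15 of them, 5 were below in both cortex arrays and 2 above. Among all tested probe sets 31.8% were below and 14.7% above, and the shares among all untested ones were not counted. They included all probe sets for both copies of vamp2, a SNARE of secretory vesicles, with 27.7 to 195.3 in the cortex, against 39.2 to 257.4 in whole oocytes. Both copies of rab25, a Rab11 relative of epithelial cells, were also among them. rab7a.S, of late endosomes, had 33.2 and 40.8 in the cortex, against 133.8 and 74.0 in whole oocytes, while rab7a.L was tested and had a log2 change of 0.21.

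Among the genes of the same pathways that the symbol rule does not take in, 2 of 129 tested probe sets (1.55%, beside 3.31% of all) rose and 0 fell by limma. rtn3.L, a reticulon that bends ER membranes into tubules, had 21245 and 19680 in the cortex, against 2130 and 2368 in whole oocytes (9.03-fold higher, log2 change 3.18 ± 0.30, adjusted p = 0.00222). The study had picked this gene from these samples. stam2.S, which encodes part of the ESCRT-0 complex that binds ubiquitinated cargo, had 13760 and 7078 in the cortex, against 2464 and 2404 in whole oocytes. It was 4.03-fold higher (2.01 ± 0.39, adjusted p = 0.0301), and lost the call without whole oocyte replicate 1 (2.03, adjusted p = 0.176), without whole oocyte replicate 2 (1.99, adjusted p = 0.179), with no filter on dim probe sets (adjusted p = 0.0661) and without the intensity trend (adjusted p = 0.0588). The whole list had a median of -0.21, with 48 probe sets above 0 (37.2%, beside 34.3% of all). At an unadjusted p under 0.05 it held 7 higher (5.43%, beside 8.02% of all) and 8 lower (6.2%, beside 4.62% of all).

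Values beyond those calls, singled out after they were seen, ran in both directions. ap1s1.L, of a clathrin adaptor of the Golgi, had 8152 and 3014 in the cortex, against 1482 and 938.0 in whole oocytes (2.05 ± 0.51, adjusted p = 0.0899). It was called in the fit that blocks on replicate number and with the signal limit at the 60th percentile. lnpk.L, which stabilizes junctions of ER tubules, had 21645 and 21649 in the cortex, against 8911 and 12976 in whole oocytes (1.01 ± 0.30, adjusted p = 0.164). Translocon-associated genes included ssr1.S (1.54 ± 0.56, adjusted p = 0.312) and ssr3.L (0.90 ± 0.42). Other genes of ER entry went both ways, such as srp68.L at 0.41 and -0.59, ssr2.S at 0.30 and srp54.S at -0.14, -0.34 and -0.73. The lowest were trappc6a.L, of a Golgi tether (-1.44 ± 0.47, adjusted p = 0.231), the SNARE gene bnip1.L (-1.21 ± 0.61) and napg.L, which helps take SNAREs apart (-1.15 ± 0.36, adjusted p = 0.201).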

How the data were processed

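The deposited files hold 1 linear intensity value for each probe set of an array, made by the authors with MAS5 per the submitters' processing notes. Its version and scaling settings are not given in the sources at hand. Per the labels' protocols, RNA was amplified in a 2-cycle cDNA synthesis, which favours 3' ends. MAS5 detection calls were not used here. No value is an amount per oocyte. Symbols came from the platform annotation (9304 probe sets with 1 symbol, 195 with several, 5992 with none), updated through gene identifiers of Xenopus_laevis_v10.1, which matched 142 of 143 member symbols. No sequences or coordinates were used here.

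Signals had an offset of 19.11 added before log2. Those whose mean over the 4 arrays reached 271.5, the 40th percentile, were tested two-sided with limma 3.58.1 in R 4.3.3. Variances were shrunk towards a trend on intensity (residual degrees of freedom 2, prior 6.22). The homeolog test used no trend. The fit was run on simulated arrays drawn independently, with a spread taken from the fit itself. That run does not show how the pairing of arrays affects the calls. The number of arrays limits precision. Same-numbered arrays come from the same female per the labels, and their deviations correlated at 0.35 across tested probe sets; the fit has no block, and the block is an alternative. A label of vegetal cortex replicate 2 repeats the numbers of replicate 1; its title was followed. Brightness served to choose or describe probe sets; signals of different probe sets were not compared as amounts of RNA.

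The members, lists and role groups were chosen with earlier results of these data known. Named members are those called, the 10 largest increases and 10 largest decreases by the smaller change of both pairs, the brightest of each role group, other probe sets of called genes and called genes of the pathway list (157 symbols listed, 113 measured). Others were named after their values were seen. rab11b.1 and arf6.2 were placed with the GTPases after their symbols were seen.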

Additional observations from a re-analysis of the deposited data

How the results depend on the processing

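Of 425 recomputed log2 changes of the 36 named probe sets, 400 kept their direction and their side of the threshold, 12 gained a call, 8 lost one and 5 changed sign, all of the 5 without a call: stx19.S on its brightest probe set (0.016 with median centring, -0.54 to 0.39 with 1 array left out), and with 1 array left out stxbp3.L (-0.73 to 0.28) and vps35.S (-0.67 to 0.064). The number of traffic probe sets called higher was 1 with all probe sets tested and 1 without the trend, and 1 to 7 with 1 array left out; those called lower numbered 0 to 6 with 1 array left out. With the replicate number as a block it was 3 (snx10.L was added). In that fit 3 pathway genes outside the symbol rule were called (ap1s1.L was added), and the block changed no other call. With the limit at the 60th percentile 3 pathway genes were called too, again with ap1s1.L added. With the limit at the 60th percentile 3 probe sets were 2-fold higher and 0 were 2-fold lower in both pairs. The shares over all probe sets at that limit were not counted, and without an array the 2-fold counts cannot be had. The median log2 change of the members was -0.23 with the offset at the 25th percentile, -0.16 with quantile normalization, -0.16 with median centring, -0.21 with no filter, -0.28 without probe sets that may hybridize to several transcripts, -0.29 with 1 probe set per symbol, and -0.23 to -0.19 with 1 array left out. Outside the symbol rule, 1 pathway probe set was higher with no filter and 1 without the trend, and 1 to 9 were higher and 0 to 12 lower with 1 array left out. Homeolog pairs called numbered 0 to 1 with 1 array left out. The share over all homeolog pairs in those fits was not counted. For the pathway counts, the shares of all tested probe sets called in the same fits are those printed beside the traffic calls in Results. Whether the pathway counts differ from those shares was not tested. Median centring raised the log2 change of every tested probe set by the same amount, so the members kept their place in the array. It took the brightest stx19.S probe set from -0.08 to 0.016. The COPI probe sets of copg2.S (-0.07) and copg1.L (-0.06), nearer to 0, therefore also came above 0. Counts on either side of 0 were not repeated with it. With no filter, the higher signal limit, no trend or the block, each log2 change itself stayed the same, and only its call could change. The cause of these changes was otherwise not tested. Fits with 1 cortex array assume that it varies like the whole oocyte arrays. Over all tested probe sets the 2 cortex arrays correlated at 0.843, less closely than the 2 whole oocyte arrays (0.937).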
